A study of Homo sapiens with 2 samples.

Results

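The genes followed here encode transcription factors of the squamous epithelial lineage: TP63, GRHL1, GRHL2, GRHL3, KLF5, TFAP2A, TFAP2C, OVOL1 and ZNF750. They were taken as a list of 9 names, chosen with earlier results of these data known and with no cut on signal, out of 19866 protein-coding records of the RefSeq table, and each was found there once. The measurement is 1 ChIP-seq library, in which chromatin of CAL-27 spheres was precipitated with an antibody to TCF4. CAL-27 is an established human tongue squamous carcinoma line, and growth as spheres is a common way to select for cells with stem-like traits. The control is 1 library made with an IgG antibody from the same line, and it was not analysed here. The labels name no genotype, treatment other than the antibody, time or age. They also do not say whether "TCF4" is the E protein of that name or TCF7L2, the Wnt effector long called by it. All values come from the peak list of the TCF4 library, 26642 peaks on hg38, so no value has a replicate check and no test between samples exists. Signal that does not depend on the antibody was not separated from binding here. Whether the peak caller used the IgG library as its control is not given.

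Squamous identity rests on a small set of DNA-binding proteins. p63, the product of TP63, holds the basal state and opens epidermal enhancers. Grainyhead-like factors set up the epithelial barrier and junctions, and KLF5 and the AP-2 proteins TFAP2A and TFAP2C act with p63 in keratinocytes and squamous tumours. OVOL1 and ZNF750 belong to the later steps of differentiation. A peak here is a stretch where the authors' caller found more fragments than its local background, and its summit is the highest point. The fold is the deposited fold enrichment at the summit over that background. The −log10 q measures how far a peak passes the caller's threshold. Fragments and background are the numbers behind that fold, solved from the deposited values. Intervals are 95% exact Poisson intervals with the background held fixed and cover counting error only. Peaks are not a measure of expression, so whether these 9 genes were active in the library was not measured.

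The promoter table of RefSeq (GRCh38.p14) matched 5 of the 9 genes, with 8 starts of transcription. The upstream bases of 4 starts are shown, those of KLF5, GRHL1 and TFAP2A because a peak covers part of them, and that of GRHL3 because a peak begins 63 bp past its window, which runs to 50 bases after the start. At the other 4 starts the nearest peak was 325 bp or more from the window. Each line holds the 250 bases before a start, 5′ to 3′ on the strand of the gene, and capitals mark the motifs searched. The windows are those of KLF5 at its second start, chr13:73058755-73059004 on the plus strand, GRHL1 at chr2:9951443-9951692 on the plus strand, TFAP2A at its inner start, chr6:10412392-10412641 on the minus strand, and GRHL3 at its first start, chr1:24319107-24319356 on the plus strand.
KLF5: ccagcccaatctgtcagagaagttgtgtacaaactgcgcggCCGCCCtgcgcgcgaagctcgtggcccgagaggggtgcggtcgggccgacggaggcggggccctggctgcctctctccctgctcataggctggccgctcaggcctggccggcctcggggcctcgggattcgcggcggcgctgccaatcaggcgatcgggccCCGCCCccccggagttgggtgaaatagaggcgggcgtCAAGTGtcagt
GRHL1: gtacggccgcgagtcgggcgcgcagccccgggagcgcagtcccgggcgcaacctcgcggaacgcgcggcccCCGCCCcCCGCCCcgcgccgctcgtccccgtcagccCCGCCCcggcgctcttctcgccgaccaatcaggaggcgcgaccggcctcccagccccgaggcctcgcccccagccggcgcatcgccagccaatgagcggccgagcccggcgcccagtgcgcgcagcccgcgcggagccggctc
TFAP2A: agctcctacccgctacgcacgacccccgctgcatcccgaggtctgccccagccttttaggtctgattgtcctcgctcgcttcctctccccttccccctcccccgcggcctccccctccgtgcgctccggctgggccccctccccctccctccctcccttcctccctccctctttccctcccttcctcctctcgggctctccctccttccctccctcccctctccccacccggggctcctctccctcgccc
GRHL3: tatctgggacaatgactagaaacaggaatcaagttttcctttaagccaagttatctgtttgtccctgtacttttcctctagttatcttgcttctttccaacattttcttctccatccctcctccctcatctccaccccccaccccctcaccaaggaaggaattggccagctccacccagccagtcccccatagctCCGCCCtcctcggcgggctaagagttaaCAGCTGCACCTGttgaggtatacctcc

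The KLF5 peak covered 217 of the 250 bases and its summit lay 108 bp before the start. The GRHL1 peak covered 204 bases with its summit 147 bp before the start. The TFAP2A peak covered 136 bases, and its summit lay 344 bp before the start, outside the window. At GRHL3 the peak began past the window and its summit lay 266 bp after the start. The G+C content of the first 3 was high, at 70.8%, 81.6% and 71.2%, against 50.8% at GRHL3 and a median of 58.0% (quartiles 46.4 and 68.0%) over 35116 windows. Motifs were searched on both strands. CANNTG, the E-box bound by E proteins, was found at KLF5 (1 match, CAAGTG, bases 11 to 6 before the start) and at GRHL3, where CAGCTG and CACCTG stood side by side from base 27 to base 16. Among the 4 windows not shown, that of TP63 held 3 matches, and the second start of GRHL3 and the first of KLF5 held 1 each. The E-box occurs in 61.8% of all windows, and its CAGCTG form, which overlaps it, in 14.0%. The TCF/LEF motifs CTTTGAT and CTTTGTT, present in 2.26% and 4.50% of windows, were in none of the 4. GGGCGG, a KLF/SP motif found in 42.6%, had 3 matches at GRHL1, 2 at KLF5 and 1 at GRHL3. TGAGTCA (AP-1, 4.20%; its reverse complement TGACTCA is the same search), AACCGGTT and AACNGGTT (grainyhead, 0.117% and 1.49%, the first contained in the second) and GCCNNNGGC (AP-2, 19.8%) were absent from all 4 shown, and the window of the second GRHL3 start held 1 GCCNNNGGC. The TFAP2A window held none of the motifs. These are matches of letters and not sites of binding.

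Most of the 9 genes had a peak at an end. Among genes with such a peak, the highest fold there lay below the median at all of these members but GRHL1. A summit lay within 1 kb of an end of the record at 7 of the 9 genes, against 41.5% of all protein-coding genes. TP63 and KLF5 had none there. The summits just inside the 1 kb limit lay 885 bp from ZNF750, 924 bp from the low-coordinate end of TFAP2C and 936 bp from GRHL3, with folds of 3.78, 3.77 and 3.84. Those just outside it lay 1557 bp from the end of GRHL2 and 2097 bp from that of GRHL3, with folds of 4.53 and 5.57. Among genes with a peak at an end, the highest fold there had a median of 3.78 over the 7 members and 6.39 over all 8241 such genes. GRHL1, at 6.65, was the only member above that median, with a counting interval of 3.76 to 11.0 that spans it. The intervals of GRHL2 (2.26 to 8.52), GRHL3 (1.97 to 6.96), TFAP2A (1.92 to 6.79) and ZNF750 (1.80 to 7.28) span it too. For these genes the side of the median is not resolved, and the ranks that follow are of the deposited folds. The intervals of TFAP2C (2.09 to 6.37) and OVOL1 (2.14 to 4.80) lie below it. Of all genes with a peak at an end, 85.3% were at least as high as GRHL2 (4.58), 96.3% as GRHL3 (3.85), 96.9% as ZNF750 (3.78), 96.9% as TFAP2C (3.77), 97.1% as TFAP2A (3.75) and 99.5% as OVOL1 (3.27). With a −log10 q of at least 5, peaks remained at an end in 2 of 9 members, GRHL1 and OVOL1, against 27.4% of all genes. At 10 or more there were 0 of 9, against 14.2%.

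**Figure D1:**
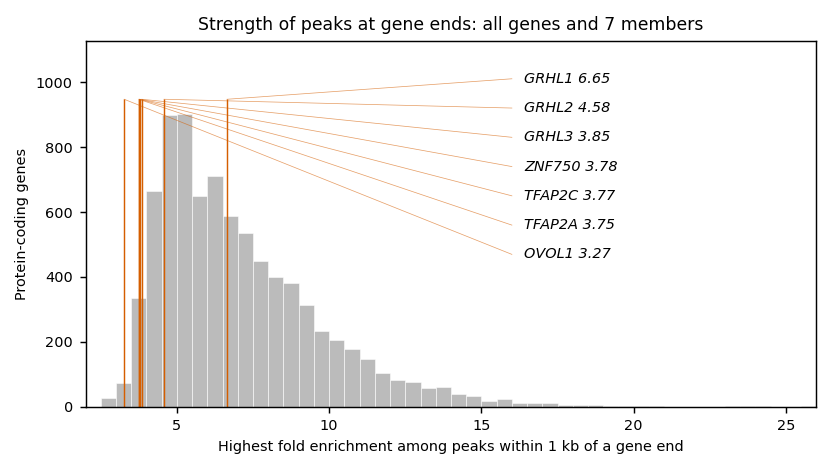
Histogram of the highest fold enrichment among peaks within 1 kb of a gene end (x axis, deposited fold) over the 8241 protein-coding genes with such a peak (y axis, number of genes per bin of 0.5). Vertical lines mark the 7 members, 6 of which have a deposited fold below the median of 6.39. Counting intervals, most of which span that median, are not drawn.

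Most of the 9 genes also held a peak inside. A summit lay inside 8 of the 9 records, all but GRHL1, against 39.0% of protein-coding genes. Longer genes hold summits more often, so genes were also divided into 5 classes of equal size by length. The share with a summit inside was 31.4% in the class of TFAP2C, OVOL1 and ZNF750 (6.56 to 16.6 kb), where all 3 had one, and 38.5% in that of KLF5 and TFAP2A, where both did. It was 47.6% in the class of GRHL1 and GRHL3, where GRHL3 did, and 60.0% in that of TP63 and GRHL2, where both did. At a −log10 q of at least 5, 6 of 9 members kept a summit inside (20% of all genes), and at 10 or more 5 did, TP63, KLF5, TFAP2A, OVOL1 and ZNF750 (8.22% of all genes). By length class the shares at 10 or more were 7.53, 8.56, 10.3 and 10.5%, from shorter to longer. In all, 13 summits lay inside and farther than 1 kb from an end, with folds of 3.63 to 10.9 and a median of 5.65. That median is above the 5.13 of all 26642 peaks (quartiles 4.34 and 6.47). The 9 summits at ends, which include either end of a record, had a median fold of 3.78 and a highest of 6.65. The contrast is one of record ends and not of promoters. Among the 13, summits at KLF5 (10.9), TFAP2A (4.06) and GRHL3 (4.73) lay within 1 kb of a listed start of transcription. The 13 belong to 7 members, of which TP63 and KLF5 had no summit at an end. In GRHL2, GRHL3, TFAP2A, OVOL1 and ZNF750, which had both kinds, the highest fold was at an inner summit, but only at OVOL1 did its interval clear that of an end peak, the one at the low-coordinate end.

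**Figure D2:**
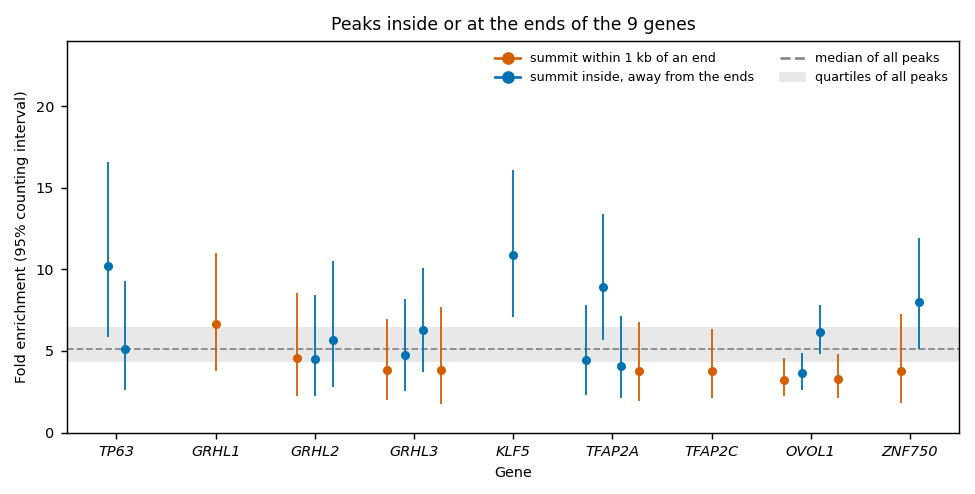
Fold enrichment (y axis, deposited value) of the 22 peaks with a summit inside or within 1 kb of an end of the 9 genes (x axis), with 95% Poisson counting intervals. The dashed line and band are the median (5.13) and quartiles of all peaks, and 1 of the 9 summits at ends lies above the line.

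TP63, the regulator of basal squamous cells, lies at chr3:189596746-189897276, and its 301 kb record held 2 summits. The stronger, in the peak chr3:189834091-189834240, had a fold of 10.2 (interval 5.87 to 16.6) on 14 fragments over a background of 0.475. The other lay 7.79 kb farther on, with a fold of 5.14 (2.63 to 9.29) on 9 fragments. These 2 intervals overlap. Both lay far inside the gene, the first 237 kb from its low-coordinate end. The gene has an upstream promoter and an internal one that makes the shorter ΔNp63 form, the main form in squamous cells. The start in the table, at 189631389, had its nearest summit 202829 bp downstream. The distance of the summits from the internal start was not measured. The strongest summit of the neighbourhood, with a fold of 11.0 (7.17 to 16.3) on 23 fragments, lay 40.4 kb past the high-coordinate end, closer to P3H2, a collagen prolyl hydroxylase gene 19061 bp away.

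Each of the 3 grainyhead-like genes had a summit within 1 kb of its low-coordinate end, and their other summits lay in different places. GRHL1, at chr2:9951693-10002277, had its only summit in or at the gene just before the start, with a fold of 6.65 (3.76 to 11.0) on 13 fragments and a −log10 q of 7.16. The non-coding record LOC105373422 ends within 1 kb of the same summit. The inside of the gene was without a summit, and 3 summits with folds of 3.54, 5.44 and 4.77 followed within 20041 bp of its high-coordinate end. Farther along, 4 summits lay closer to KLF11 or CYS1 than to GRHL1.

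GRHL2, whose product maintains epithelial junctions, lies at chr8:101492439-101681200. The summit nearest its low-coordinate end, 31 bp outside it, reached a fold of 4.58 (2.26 to 8.52) on 8 fragments, and it also lies at the divergent non-coding record GRHL2-DT. A second summit 1557 bp into the gene had a fold of 4.53 on 8 fragments, and the third, 160 kb in, a fold of 5.65 (2.79 to 10.5) on 8. None of the 6 summits within 100 kb of GRHL2 reached a −log10 q of 5, and the highest number of fragments was 10.

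GRHL3, which acts late in barrier formation, had the most summits of the family. It lies at chr1:24319357-24364482 and held 3 summits inside and 1 that was 936 bp past its high-coordinate end, within the record of STPG1. The summit 266 bp after the first start had a fold of 3.85 (1.97 to 6.96) on 9 fragments. The next had a fold of 4.73 on 11 fragments, 757 bp before the second start, and the third, 25.7 kb into the gene, had 6.26 (3.68 to 10.1) on 15. The strongest summit of the locus stood 33.9 kb before the first start with no protein-coding gene between, at a fold of 9.06 (5.64 to 13.9) on 19 fragments. It was also the only one within 100 kb of GRHL3 with a −log10 q above 10 (13.2). Counting intervals of the strongest peaks in or at GRHL1, GRHL2 and GRHL3 overlap, so an order of the 3 genes by strength is not resolved at this depth.

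KLF5, a zinc finger factor of proliferating epithelial cells, had 1 summit within 100 kb, and its fold was the highest in or at any of the 9 genes, with an interval that overlaps that of TP63. The gene lies at chr13:73054976-73077538. The peak, chr13:73058788-73059267, had a fold of 10.9 (7.07 to 16.1) on 23 fragments over a background of 1.2, and a −log10 q of 18.1. Its summit lay 3921 bp inside the record, so it counts as internal by record ends, and 108 bp before the second start in the promoter table, so it counts as a peak at a start. With starts in place of ends, 4 of the 5 members in the table had a summit within 1 kb (KLF5, GRHL1, GRHL3 and TFAP2A), against 44.4% of the protein-coding genes in the table. The interval of the KLF5 fold lay above those of the end peaks of TFAP2A, TFAP2C and OVOL1 and of the low-coordinate end of GRHL3. It overlapped those at GRHL1, GRHL2, ZNF750 and the high-coordinate end of GRHL3.

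The AP-2 genes, whose products bind GC-rich elements in epidermis and neural crest, differed in their inner peaks. TFAP2A, at chr6:10396677-10419659, held 4 summits, a number that 1.66% of protein-coding genes of its length class reach. From the low-coordinate end their folds were 4.42, 8.93, 4.06 and 3.75, on 10, 21, 10 and 9 fragments. The second, in the 678 bp peak chr6:10404094-10404771, was the strongest, with an interval of 5.69 to 13.4 and a −log10 q of 13.9. It lies 7861 bp past the inner start and within the antisense record TFAP2A-AS2, and the third lies within TFAP2A-AS1. The fourth lay 436 bp past the outer start, with a fold interval of 1.92 to 6.79. TFAP2C, at chr20:56629306-56639283, held 1 summit, 924 bp inside its low-coordinate end, which reached a fold of 3.77 (2.09 to 6.37) on 12 fragments. A stronger summit stood 2751 bp outside that end, with a fold of 4.71 (2.76 to 7.57) on 15 fragments. No summit within 100 kb of TFAP2C reached a −log10 q of 5. The interval of the strongest TFAP2A peak overlaps that of TFAP2C.

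OVOL1 and ZNF750, the differentiation factors, had the most crowded neighbourhoods. OVOL1, at chr11:65787063-65797214, had 32 summits within 100 kb, a number reached by 56 protein-coding genes (0.282%). Of these, 19 lay within 1 kb of an end of another protein-coding gene, among them KAT5, RNASEH2C, AP5B1, CFL1, MUS81, EFEMP2, FIBP and CCDC85B, and the window holds 23 such ends. Inside OVOL1 stood a peak at chr11:65793197-65793446 with a fold of 6.16 (4.79 to 7.80) on 67 fragments and a −log10 q of 27.8, and a second with a fold of 3.63 (2.63 to 4.89) on 41. At its ends stood summits of 3.24 (2.22 to 4.59) on 30 fragments, 276 bp outside the low-coordinate end, and 3.27 (2.14 to 4.80) on 24, 695 bp outside the other. The intervals of the strongest inner peak and of the peak at the low-coordinate end do not overlap, and that of the high-coordinate end touches the inner one only at its bound. The predicted gene LOC124902693 overlaps 3 of these 4 summits. The local background was mostly high but uneven, from 0.947 to 15.2 fragments over the 32 summits. Its median was 8.13 over these and 5.11 over the 240 peaks within 1 Mb, against 0.962 over all peaks. So the low folds inside and at the ends of OVOL1 (3.24, 3.27 and 3.63) rest on many fragments, 24 to 41. The part of this background in the count of summits and in the folds was not tested. Without the 10% of peaks with the highest background, OVOL1 had 8 summits within 100 kb and none inside or at its ends.

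ZNF750, a repressor and activator of terminal differentiation genes under p63, lies at chr17:82829434-82840022, within the longer record of TBCD, a tubulin folding cofactor. Its inner peak, chr17:82836148-82836397, had a fold of 8.0 (5.14 to 11.9) on 22 fragments and a −log10 q of 12.9. The summit 885 bp outside the low-coordinate end reached a fold of 3.78 (1.80 to 7.28) on 7. The neighbourhood held 17 summits, a number reached by 4.76% of protein-coding genes, and 16 of them were closer to another protein-coding gene, most of them within TBCD. The strongest, 34.7 kb past the high-coordinate end, had a fold of 9.59 (6.73 to 13.3) on 34 fragments, and another 8122 bp past it had 7.64 on 24. Both of these lie within TBCD and outside ZNF750, whereas the inner peak lies within both records. Position alone does not assign any of them to ZNF750 or to TBCD. The background was moderately raised, with a median of 2.28 over the 98 peaks within 1 Mb.

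**Figure D3:**
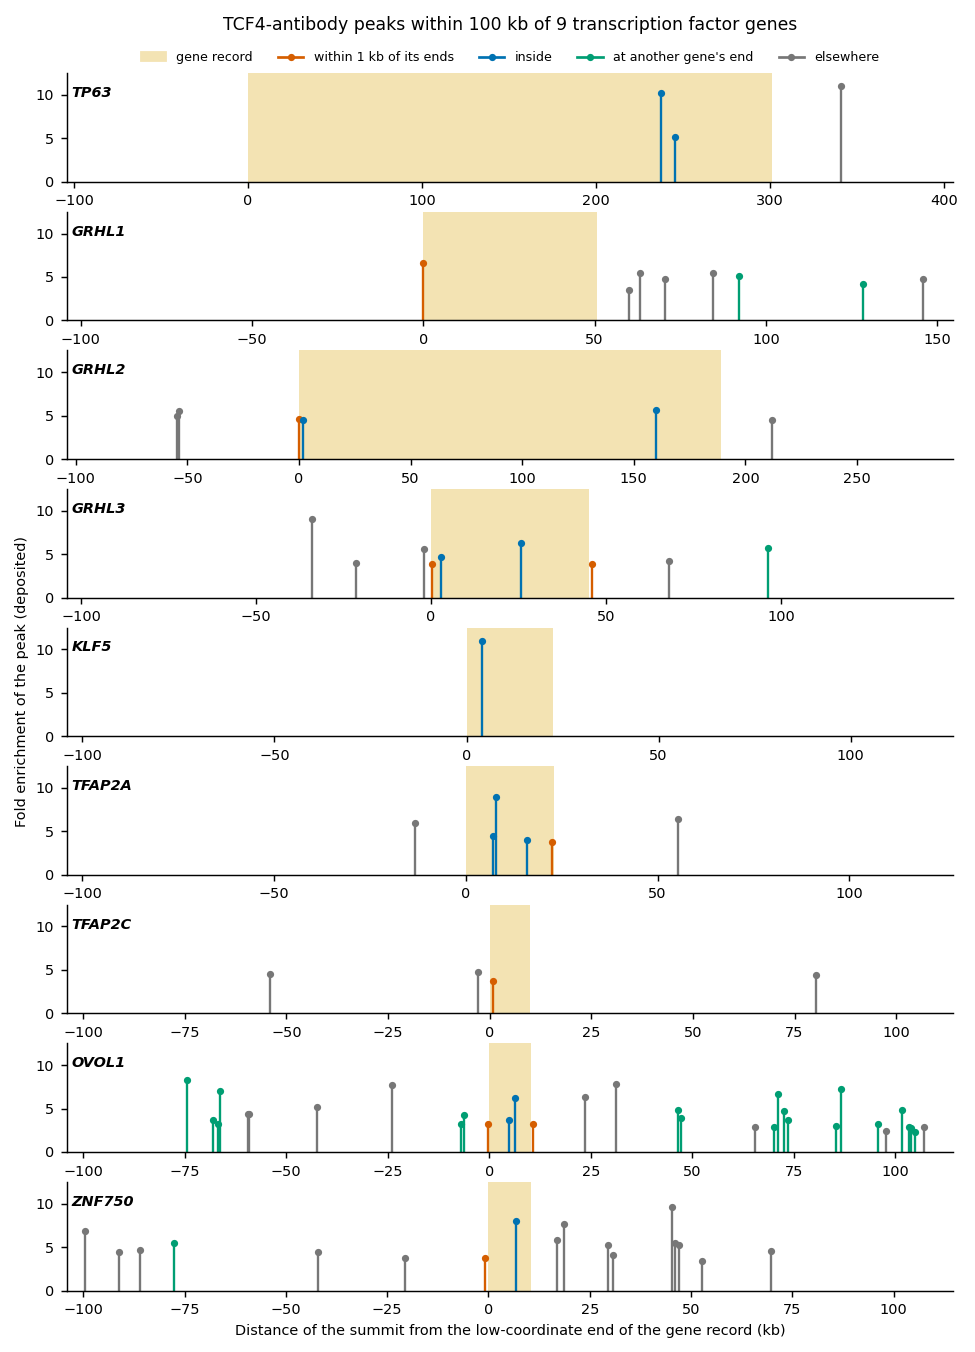
Deposited fold enrichment (y axis) of each peak against the distance of its summit from the low-coordinate end of the gene record (x axis, kb), 1 panel per gene, out to 100 kb on either side. KLF5 has 1 summit and OVOL1 has 32, most of the latter at the ends of other genes.

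**Figure D4:**
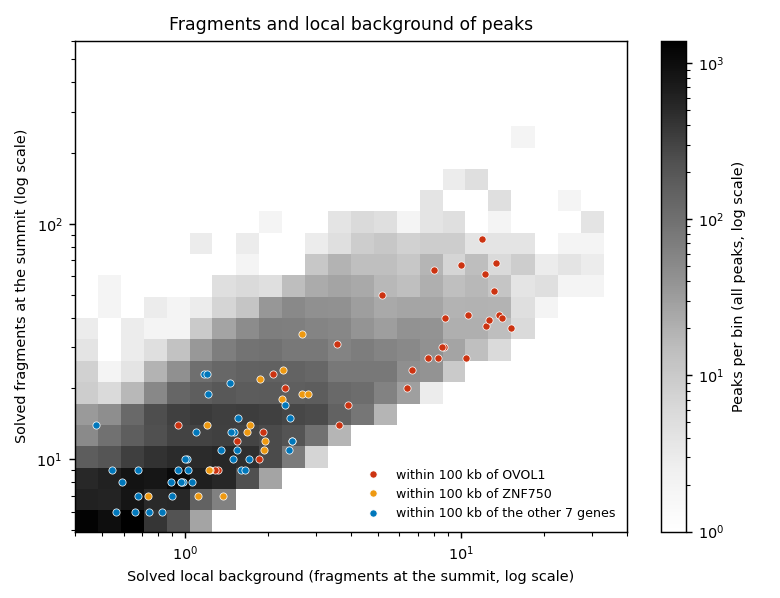
Solved fragments at the summit (y axis, log scale) against solved local background (x axis, log scale) for all peaks (grey bins) and for the 86 summits within 100 kb of the members. The OVOL1 points reach backgrounds of 15.2 fragments, above the other members' highest value of 2.80.

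Over the 9 neighbourhoods there were 86 summits, each counted once, and 54 without OVOL1. Every member had at least 1, as did 85.1% of protein-coding genes. The counts were 1 for KLF5, 3 for TP63, 4 for TFAP2C, 6 for GRHL2 and TFAP2A, 8 for GRHL1, 9 for GRHL3, 17 for ZNF750 and 32 for OVOL1, with a median of 6 against 4 over all protein-coding genes. Per 100 kb this ran from 0.449 at KLF5 and 0.599 at TP63 to 15.2 at OVOL1. At OVOL1 59.4% of summits lay at the end of another protein-coding gene, and around the other members 7.41% did (4 of 54). Another protein-coding gene was closer for 55 of the 86. The longest run of summits no more than 10 kb apart had 9 summits over 21.8 kb at OVOL1, 4 each at ZNF750 and TFAP2A, the latter over 15.4 kb.

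**Figure D5:**
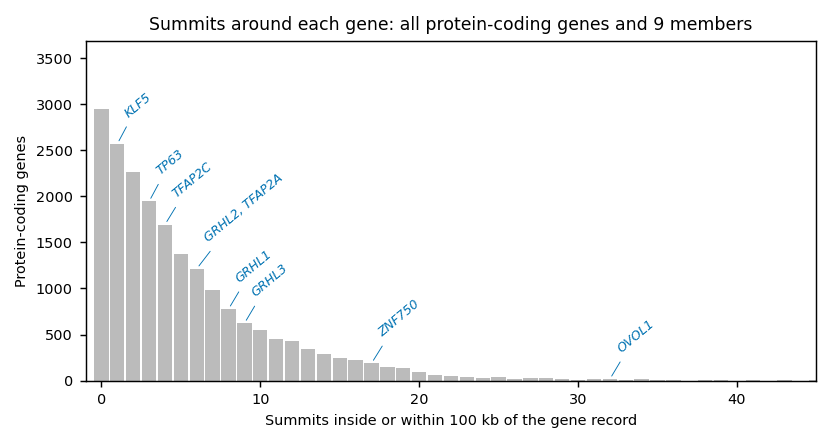
Number of protein-coding genes (y axis) by the number of summits inside or within 100 kb of the record (x axis), with the 9 members marked. KLF5 and TP63 lie among the common low counts, and OVOL1 at 32 is reached by 0.282% of genes; genes past the right edge are not drawn.

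A list of 34 other epithelial transcription factors and family relatives was described in the same way. A summit at an end was present in 14 of 34, next to the 41.5% of all genes, and the highest fold there had a median of 6.26, near the 6.39 of all genes. The grainyhead relatives TFCP2 and UBP1 had folds of 7.46 and 7.34 there, and KLF3, KLF6 and KLF2, of the family of KLF5, had 6.77, 6.51 and 6.5. ELF3, an epithelial ETS factor, had 6.02 on 37 fragments. In 20 of 34 no summit lay at an end, and in 13 none lay inside either. A summit lay inside 16 of the 34 (47.1%), against 39.0% of all protein-coding genes. At a −log10 q of at least 5, 10 of the 34 had a peak at an end, near the 27.4% of all genes.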

How the data were processed

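The deposited file is the peak list of the TCF4 antibody library. Per the submitters' processing notes, Bowtie2 2.3.5.1, SAMtools and MACS2 2.2.7.1 were used on hg38, and settings, depth and the control of the caller are not given in the sources used here. The fold is a ratio at the summit as deposited by the authors, the −log10 p and −log10 q are the authors' p-value and q-value, and the authors' score is the −log10 q multiplied by 10 and cut to a whole number. Fragments (n) and background (b) were solved from fold = (n + 1) / (b + 1) and a Poisson upper tail. This gave all 26642 peaks within 0.001 of the −log10 p, and 500 of 500 simulated peaks were recovered when tested on simulated data.

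Summits (column 2 plus column 10, 1-based) were assigned to 58961 RefSeq records on the assembled chromosomes of GRCh38.p14. Exons and introns were not used here. Members and lists were chosen with earlier results of these data known. Named were all members, their summits and neighbours, and the 8 relatives with the highest fold at an end, of which some are not reported here. Alternatives were stricter peaks, other windows, overlap, merging and starts of transcription, and leaving out OVOL1 was added after seeing the data. Computations ran in Python 3.11.15 with pandas 2.3.3, SciPy 1.17.1 and NumPy 2.4.6, and plots were drawn with Matplotlib 3.10.9.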

Additional observations from a re-analysis of the deposited data

How the results depend on the processing

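Of the values recomputed for the 5 main results, 28 stayed within 1.5 times the count or within the counting interval of the fold and 18 moved. Stricter peaks moved most. Fewer peaks enter there, and whether that alone accounts for the size of the moves was not tested. With a −log10 q of at least 5, 2 members had a summit at an end (7 with all peaks), 7 summits lay inside members (16) and 37 within 100 kb (86). At 10 or more these were 0, 5 and 18, the relatives with a summit at an end were 3 (14) and the median fold in or at members was 8.93 (4.55). With at least 20 fragments they were 1, 5, 30 and 4. The share of all protein-coding genes with a summit at an end fell too. It was 41.5% with all peaks, 27.4% at a −log10 q of at least 5 and 14.2% at 10 or more. With at least 20 fragments it was 11.1%, and 7.12% of genes then held a summit inside. Summits near members numbered 54 within 50 kb, 145 within 200 kb, 31 when closer to the member than to any other protein-coding gene, and 54 without OVOL1. Starts of transcription, known for fewer genes, gave 4 of 5 members and 9 of 26 relatives, against 44.4% of protein-coding genes with a listed start. A 500 bp window kept 5 of 9 members, against 36.6% of all protein-coding genes, and a 2 kb window 7, against 45.7%. Over all gene records, in place of protein-coding ones, the share with a summit at an end was 20%. No paired analysis was possible because each group has 1 library, and that of the IgG control has no values of its own in this work. Of the 22 peaks in or at members, 10 rest on 10 fragments or fewer, and most of their counting intervals overlap. Such depth is common in the list. The median was 11.5 fragments over the 22 peaks and 10 over all 26642 (quartiles 7 and 15).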
